A study of Homo sapiens with 16 samples.

Results

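The replication-dependent histone genes encode the bulk of the histones that package newly copied DNA. They were taken here as every protein-coding gene whose current symbol is H1-1 to H1-6 or begins with H2AC, H2BC, H3C or H4C and a digit, nearly all of them formerly named as HIST1, HIST2 or HIST3 genes. The rule found 70 genes among the 58051 gene identifiers measured: 6 of linker histone H1, 17 of H2A, 19 of H2B, 13 of H3 and 15 of H4. Of these, 55 lie in the HIST1 cluster on chromosome 6, 13 on chromosome 1 (11 in HIST2 and 2 in HIST3), 1 on chromosome 12 (H4C16) and 1 on chromosome 21 (H2BC12L). A mean of at least 10 normalized counts over the 16 libraries was reached by 62 of the 70. The 8 below it were H1-1, H1-6, H2AC1, H2BC1, H2BC3, H4C6, H4C7 and H4C12, and 3 of these (H2AC1, H2BC1 and H4C6) had no read in any library.

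The samples were P493-6 cells, human B cells immortalised with Epstein-Barr virus, whose MYC transgene is repressed by doxycycline and whose viral EBNA2 protein depends on estradiol. All 16 libraries came from this single line, grown in DMEM with serum, and fell into 4 groups of 4: high MYC with the solvent DMSO, high MYC with IMP1088, medium MYC with DMSO and medium MYC with IMP1088. IMP1088 inhibits the N-myristoyltransferases (NMT), enzymes that attach the fatty acid myristate to proteins, and was given at 100 nM; sample titles give 24 h. The medium MYC cells had received doxycycline at 0.1 ug/mL together with beta-estradiol at 1 uM from 24 hours before the inhibitor, and for the high MYC cells no agent is listed. MYC level, doxycycline and estradiol therefore cannot be told apart. The labels number the replicates 1 to 4 without saying that they were separate cultures, so p-values measure the spread between these samples, which may be technical.

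Replication-dependent histone genes are switched on in S phase, when NPAT, driven by cyclin E and CDK2, activates their promoters together with HINFP at H4 genes and the octamer factor POU2F1 at H2B genes. Their main mRNAs have no introns and, alone among messenger RNAs of animals, end in a stem-loop in place of a poly(A) tail. The stem-loop is bound by SLBP, cut with the help of the U7 small nuclear RNA, and read again when the mRNA is destroyed at the end of DNA synthesis. Dividing B cells need large amounts of these mRNAs. Some annotated genes also hold longer or spliced transcripts. In H2BC21, for example, the stem-loop begins at base 450 of a transcript of 2194 bases. Counts were given per gene, so such forms were not separated.

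The stem-loop is shown because it sets these mRNAs apart from nearly all others. The pattern searched was GG, any 2 bases, CTTTT, any 1 base, AG, any 2 bases and CC (16 bases, on the transcript strand of the GENCODE 29 transcripts), and it was present in 30 members. None of the 32 members whose gene model holds only coding bases has it, because such a model stops before the region where the loop lies. All 8 H4 genes with the pattern begin it with GGCCCT, and the 7 H2A, 11 H2B and 4 H3 genes with it begin with GGCTCT. The most frequent 16 bases were identical in 17 genes of the H2A, H2B and H3 classes. Capitals mark the 16 bases.
H2BC21: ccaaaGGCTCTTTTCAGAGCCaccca
H2BC4: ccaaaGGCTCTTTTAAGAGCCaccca
H2AC11: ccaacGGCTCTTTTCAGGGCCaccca
H4C11: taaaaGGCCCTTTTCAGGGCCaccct
H4C14: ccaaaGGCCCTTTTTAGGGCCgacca

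Promoters of 5 members are shown because the results below describe these genes as examples of different patterns. H2BC26 and H2AC25, the HIST3 pair, are transcribed away from each other and were the only members called higher with IMP1088 at medium MYC. H2BC21 fell with IMP1088 at high MYC and was higher at medium MYC, H2BC10 fell at both MYC levels, and H4C13 was lower at medium than at high MYC. Each line gives the 150 bases before the RefSeq start (assembly GRCh38.p14), read on the gene's own strand. Capitals mark CCAAT or its reverse complement ATTGG, the octamer ATTTGCAT and TATAAA.
H2BC26, chr1:228457953-228458102, plus strand: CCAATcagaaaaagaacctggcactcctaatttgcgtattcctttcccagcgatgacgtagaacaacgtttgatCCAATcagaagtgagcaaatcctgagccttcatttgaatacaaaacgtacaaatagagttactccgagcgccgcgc
H2AC25, chr1:228457874-228458023, minus strand: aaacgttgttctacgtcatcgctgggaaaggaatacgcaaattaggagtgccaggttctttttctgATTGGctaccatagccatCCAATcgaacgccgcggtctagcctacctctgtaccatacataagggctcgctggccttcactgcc
H2BC21, chr1:149886683-149886832, minus strand: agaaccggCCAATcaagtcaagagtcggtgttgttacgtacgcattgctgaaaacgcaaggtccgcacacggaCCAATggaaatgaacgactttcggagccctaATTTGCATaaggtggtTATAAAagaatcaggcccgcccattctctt
H2BC10, chr6:26272781-26272930, plus strand: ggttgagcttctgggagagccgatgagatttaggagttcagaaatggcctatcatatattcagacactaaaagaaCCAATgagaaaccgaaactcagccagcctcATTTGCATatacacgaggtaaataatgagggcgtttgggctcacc
H4C13, chr6:27873535-27873684, minus strand: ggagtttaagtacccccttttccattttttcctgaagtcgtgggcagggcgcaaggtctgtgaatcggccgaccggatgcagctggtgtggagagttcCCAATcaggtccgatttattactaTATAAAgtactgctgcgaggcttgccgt

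The windows of H2BC26 and H2AC25 overlap, so part of each is the other read backwards. Both strands of the 250 bases before the start were searched, except for TATAAA, which was searched on the gene's own strand only. Overlaps between motifs were allowed, and 64 members could be matched to RefSeq. CCAAT stood in 84.4% of them against 32.0% of all 35116 promoters in the table, and in 3 of 13 H4 promoters against every H1, H2A, H2B and H3 promoter matched. The octamer ATTTGCAT, the site that POU2F1 reads, stood in 11 of 16 H2A and 14 of 18 H2B promoters, in 1 of 11 H3 promoters, in no H1 or H4 promoter, and in 1.63% of all promoters. TATAAA stood in 57.8% of the members' promoters against 6.80% of all. CACGTG, the E-box that MYC can bind, was found in 0 of the 64 windows against 6.34% of all promoters. A match is a description of letters and not of binding.

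Library depth ranged from 8755296 to 13858534 reads. MYC itself, the check of the labels, lay between 29693 and 34376 normalized counts in the high MYC DMSO libraries and between 904 and 1022 in the medium MYC DMSO libraries. All 7 B cell markers were measured in every group, and their summed level ran from 19425 to 40065. The summed level of 9 markers of other cell types ran from 218 to 464, with HBB at 0 in every library. Single markers differed between the MYC levels. With DMSO, COL1A1 lay between 5.59 and 10.5 at high MYC and between 152 and 174 at medium MYC. EPCAM lay between 54.2 and 70.8 at high MYC and between 9.39 and 21.3 at medium MYC.

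The histone genes made up 0.846% ± 0.0703 (SD, n = 4) of all normalized counts in high MYC cells with DMSO, 0.678% ± 0.0431 with IMP1088, 1.11% ± 0.104 in medium MYC cells with DMSO and 1.04% ± 0.0365 with IMP1088. All 5 classes contributed on a similar scale. In high MYC cells with DMSO the summed normalized counts were 13794.5 ± 886 for H1, 18936 ± 1941 for H2A, 21795 ± 2263 for H2B, 14821 ± 1617 for H3 and 18173 ± 1433 for H4 (SD, n = 4). The highest member per kilobase of its gene model, as a mean over the 16 libraries, was H4C11 in H4 with 9788 normalized counts per kilobase. The linker histone H1-5 followed with 8716 and H2AC19 with 7946. Lengths of these models differ between genes in whether they include bases beyond the coding part, so such levels compare only roughly.

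With IMP1088 at high MYC, the histone genes were lower as a whole. Of the 62 members tested, 52 fell and 0 rose (limma on log2(normalized count + 1), adjusted p under 0.05), where 16.3% of all 13765 genes tested fell and 10.5% rose. The median log2 change of the members was -0.35, against -0.02 over all genes. In 41 of the 62, all 4 IMP1088 libraries lay below all 4 DMSO libraries, which held for 15.8% of all genes. The falls were moderate, and 2 members, H3C4 and H3C3, fell by 1.5-fold or more. In bulk RNA, fewer cells in S phase and less histone mRNA in each such cell cannot be told apart.

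Every class took part. By class, 4 of 4 H1 genes fell, 13 of 16 H2A genes, 14 of 17 H2B genes, 10 of 13 H3 genes and 11 of 12 H4 genes, with median log2 changes of -0.31, -0.35, -0.32, -0.45 and -0.30. The class sums moved alike: with IMP1088 the sum was 20.4% lower for H1, 20.7% for H2A, 21.4% for H2B, 23.1% for H3 and 18.6% for H4, and in each class the 4 IMP1088 libraries lay below the 4 DMSO libraries. Differences between the classes were not tested. By position, 44 of 47 HIST1 genes and 7 of 11 HIST2 genes fell, and neither HIST3 gene passed the test.

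**Figure D1:**
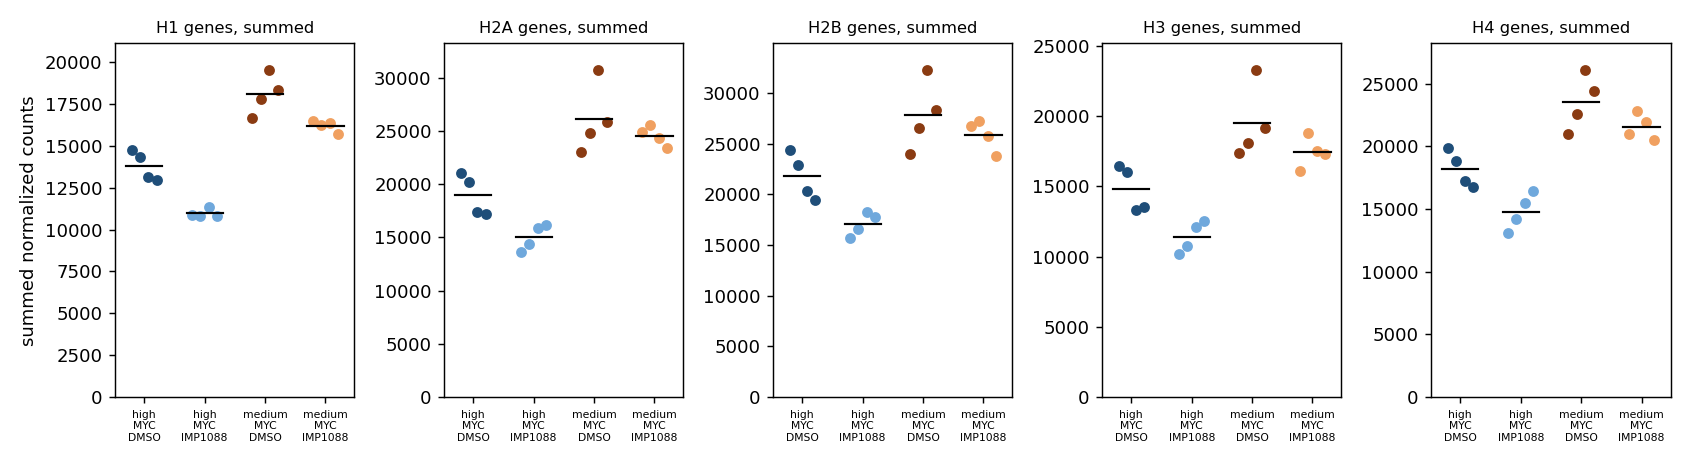
Summed normalized counts of the H1, H2A, H2B, H3 and H4 genes in each of the 16 libraries, by group; points are libraries and lines are group means. In each class the 4 high MYC libraries with IMP1088 lie lowest, and the highest library is a medium MYC DMSO library.

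The most abundant linker histone gene, H1-5, showed the fall clearly. It had 6387, 6258, 5823 and 5851 normalized counts in the high MYC DMSO libraries and 4732, 4772, 4847 and 4591 with IMP1088. The groups did not overlap, and the log2 change was -0.36 (limma adjusted p = 5.15e-07, SE 0.0393). H1-4 fell by 0.32 and H1-2 by 0.28 on the log2 scale.

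Among core histones, H2BC21 of the HIST2 cluster had 2677, 2440.4, 2214 and 2087 normalized counts with DMSO and 1584, 1768, 1863 and 1846 with IMP1088, again with no overlap. Its log2 change was -0.41 (limma adjusted p = 0.000911, SE 0.0848). Its HIST2 neighbour H2BC18 fell by 0.44 and H2AC18 by 0.34. In HIST1, H2BC4 fell by 0.29 and H2AC11 by 0.27 on the log2 scale. The call of H2AC11 ended without replicate 1 or 2 of the high MYC DMSO group or replicate 1 of the IMP1088 group.

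The largest falls were in H3 genes, which encode the replication-coupled H3 proteins. H3C4 had 397, 433, 281 and 292 normalized counts with DMSO and 223, 189.7, 218 and 238 with IMP1088. All IMP1088 libraries were the lower ones, and the log2 change was -0.67 (limma adjusted p = 0.00175, SE 0.148). H3C3 fell by 0.61 and H3C12 by 0.58. The more abundant H3C10 and H3C8 fell by 0.37 and 0.41. H3C4 shares exon bases on its strand with another annotated gene and H3C12 with H2AC17, and reads there could be counted for either.

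H4C14 had a log2 change of -0.35 (limma adjusted p = 0.00105, SE 0.074), H4C11 of -0.31 and H4C5 of -0.21. H4C13, H4C4 and H4C1 fell further, by 0.38, 0.47 and 0.45.

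The 10 members not called lower were H2AC14, H2AC19, H2AC25, H2BC12L, H2BC26, H2BC6, H3C14, H3C15, H3C6 and H4C15. Several of them have near-identical copies. H3C14 and H3C15 share all of their 50-base windows, and how reads were divided between them varied by library. H3C14 had 4758, 4893, 1865 and 4638 normalized counts in the high MYC DMSO libraries and H3C15 had 1666, 1224, 3537 and 973. Where the first was low, in replicate 3, the second was high. In 2 libraries both held the same value, and H3C14's share of the pair ran from 34.5% to 94.1%. Taken as a sum the pair fell, by 0.29 on the log2 scale (limma adjusted p = 0.00701, SE 0.0775), against -0.39 with adjusted p = 0.219 for H3C14 alone. H3C14 alone was called without replicate 3 of the high MYC DMSO group, at -0.73 with adjusted p = 0.00092. The summed pairs H2AC19 with H2AC18 and H4C14 with H4C15 also fell, by 0.29 and 0.31.

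With such copies summed, 51 of 55 genes or summed groups fell at high MYC, and none rose. These groups include H2AC17 with H3C12 and H2AC15 with H2BC15, genes of different classes whose annotated exons overlap. Among the 22 tested members that share no 50-base window with another gene, all 22 fell. Both counts used the same limma threshold.

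**Figure D2:**
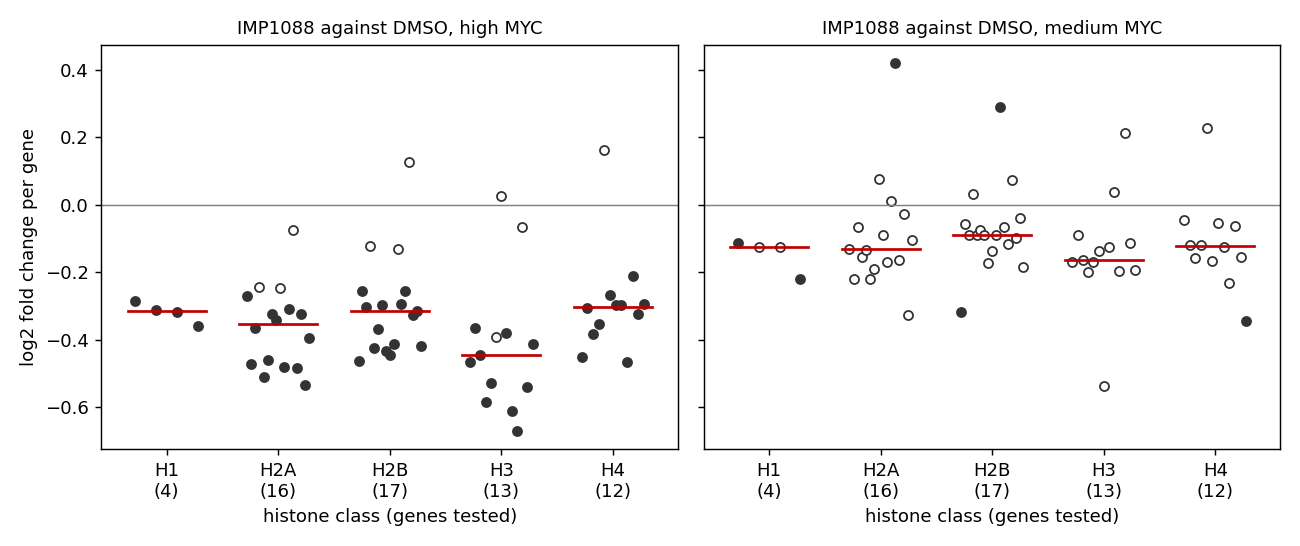
Log2 fold change with IMP1088 against DMSO for each of the 62 tested histone genes by class, at high MYC (left) and medium MYC (right); filled points have adjusted p under 0.05 and red lines are class medians. At high MYC 52 genes are filled and below 0, and at medium MYC 6 genes are filled, 2 of them above 0.

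At medium MYC the same dose left most histone genes without a call. Of the 62 members, 4 fell (H1-2, H1-5, H2BC10 and H4C9) and 2 rose (H2AC25 and H2BC26), where 14.6% of all genes fell and 11.7% rose. Without replicate 1 of the medium MYC DMSO group 11 members fell and 1 rose, and without its replicate 2, 1 rose. The median log2 change of the members was -0.12, against -0.01 over all genes, and 53 of the 62 lay below 0. The median was -0.05 without replicate 3 of the medium MYC DMSO group, -0.18 without its replicate 1 and -0.06 with a correction for GC content chosen after seeing the data. All class sums were lower with IMP1088, by 10.3% for H1, 5.54% for H2A, 6.43% for H2B, 10.1% for H3 and 8.11% for H4, and only for H1 were the groups separate. The sums of H2A and H2B moved with single libraries: their log2 ratios, -0.08 and -0.10, were -0.0008 and -0.02 without replicate 3 of the medium MYC DMSO group and -0.14 and -0.16 without its replicate 1. For H3 and H4 the ratios of -0.15 and -0.12 became -0.06 and -0.07 without replicate 3. Without replicate 4 of the IMP1088 group, H2B was at -0.05. The summed medium MYC DMSO values spread widely, from 102027 to 132095 normalized counts over all members, and those with IMP1088 lay between 100646 and 110699.

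H1-5 fell at medium MYC too, from 6414, 6875, 7537 and 7003 normalized counts with DMSO to 6082, 5990.1, 6001 and 5803 with IMP1088. The groups did not overlap, with a log2 change of -0.22 (limma adjusted p = 0.000214, SE 0.0393). The GC correction moved it to -0.11 with adjusted p = 0.0067. H1-2 fell by 0.11 on the log2 scale (limma adjusted p = 0.0458), a call lost in 17 of 26 alternative settings.

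H4C9, an H4 gene of HIST1, had 1104, 1134, 1325 and 1322 normalized counts with DMSO and 983, 1018, 956 and 879 with IMP1088. Its 4 IMP1088 libraries were the lower ones, with a log2 change of -0.34 (limma adjusted p = 0.000834, SE 0.071), beside -0.29 at high MYC. H2BC10 fell by 0.32 (adjusted p = 0.00382), beside -0.46 at high MYC.

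The HIST3 pair went the other way. H2BC26 (chr1:228458107-228460470, plus strand, GRCh38) had 401, 419, 491 and 441 normalized counts in the medium MYC DMSO libraries and 516, 564, 535 and 519 with IMP1088. All 4 IMP1088 values were higher, with a log2 change of 0.29 (limma adjusted p = 0.00284, SE 0.0681). H2AC25 (chr1:228456979-228457873, minus strand), whose promoter window overlaps that of H2BC26, had 126, 121, 185 and 159 with DMSO and 171, 212, 202 and 198 with IMP1088. One IMP1088 value lay within the DMSO range, and the log2 change was 0.42 (limma adjusted p = 0.0142, SE 0.123). This call ended without replicate 1 (adjusted p = 0.0559) or replicate 2 (0.0648) of the medium MYC DMSO group.

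At high MYC neither HIST3 gene was called. H2BC26 had 435, 469, 405 and 383 normalized counts with DMSO and 381, 358, 420 and 384 with IMP1088, which overlap. The difference between the responses, high minus medium MYC, was -0.42 on the log2 scale for H2BC26 (limma adjusted p = 0.00668, SE 0.0963), and it stayed called in all 33 alternative settings. For H2AC25 it was -0.49 (SE 0.174, adjusted p = 0.0879).

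**Figure D3:**
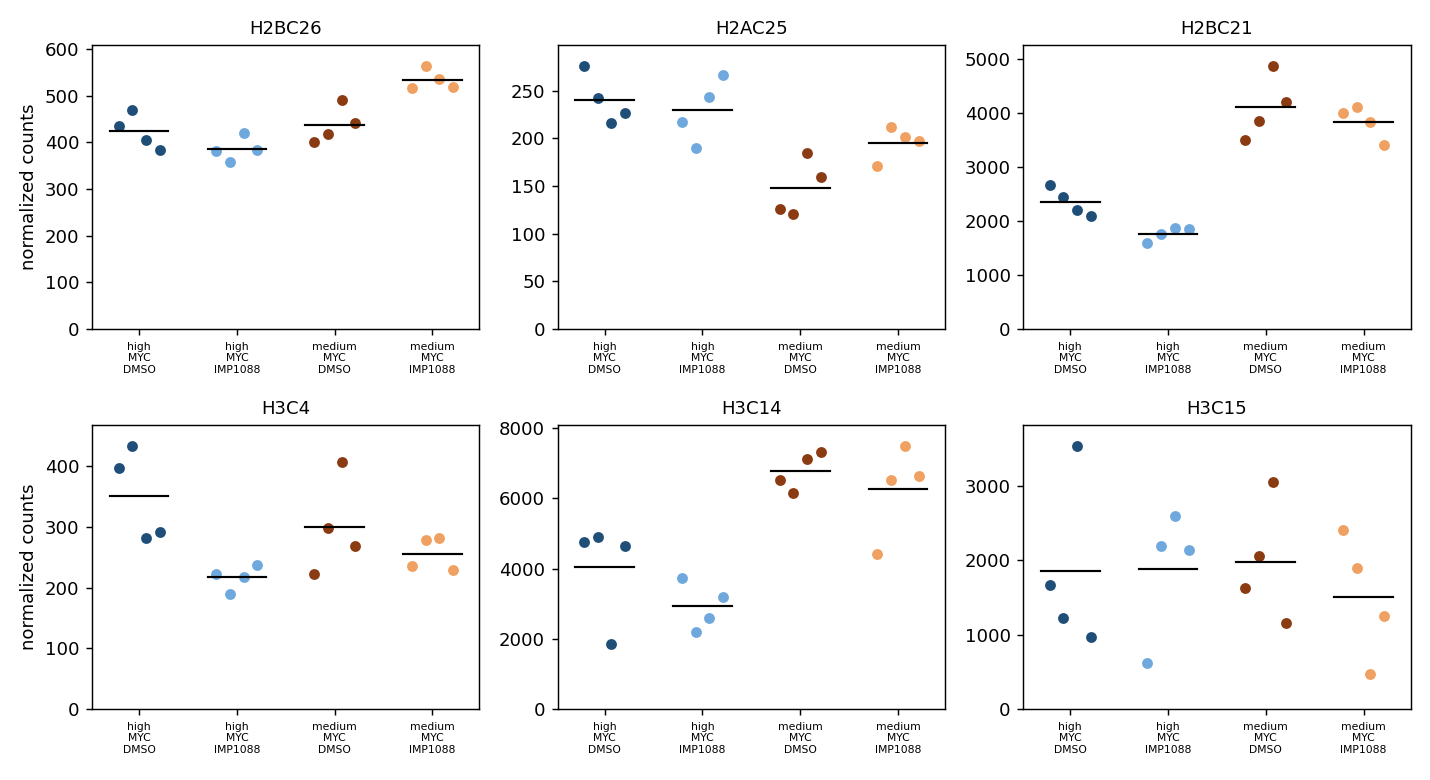
Normalized counts of H2BC26, H2AC25, H2BC21, H3C4, H3C14 and H3C15 in each library, by group, with lines at the group means. H2BC26 is highest in the medium MYC libraries with IMP1088, H2BC21 is lowest in the high MYC libraries with IMP1088, and H3C14 and H3C15 scatter widely within groups.

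H2BC26 was the only member called for a difference in response, where 5.33% of all genes were called for a more negative response at high MYC and 3.31% for a more positive one. Yet 59 of the 62 differences lay below 0, with a median of -0.24 against -0.02 over all genes. The exceptions were H2BC6, H3C15 and H4C9. A further 10 members had adjusted p between 0.05 and 0.1, among them H1-2, H2AC18, H3C3 and H3C7. The count of members called moved with the libraries used. It was 23 without replicate 3 of the medium MYC DMSO group, 10 without replicate 4 and 5 without replicate 3 of the high MYC DMSO group, 6 without replicate 4 and 3 without replicate 3 of the high MYC IMP1088 group, and 4 without replicate 4 of the medium MYC IMP1088 group. It was 2 without replicate 1 of the high MYC DMSO group or replicate 2 of the medium MYC IMP1088 group.

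Some libraries of a group differed from the others in nearly all histone genes together. In replicate 1 of the high MYC DMSO group 59 of 62 members lay above their group mean, and in replicate 4 only 3 did. In the medium MYC DMSO group, 2 of 62 lay above it in replicate 1 and 59 of 62 in replicate 3. In some libraries such a shift was weaker or absent. The count was 34 of 62 in replicates 1 and 3 of the medium MYC IMP1088 group, and 19 in replicate 2 of the high MYC IMP1088 group. RN7SK, an abundant noncoding RNA that also lacks a poly(A) tail, moved with the histone genes. Other such RNAs did so only in part. TERC rose from 297 to 436 normalized counts over replicates 1 to 4 of the high MYC DMSO group, where the histone sums fell. In the medium MYC DMSO group RN7SL1 and RN7SL2 were highest in replicate 3, as the histone genes were. RMRP, RPPH1 and TERC were highest in replicate 4 there, at 24804, 20958 and 460. The labels name total RNA and a cDNA kit, and whether poly(A) RNA was selected is not given in the sources used here.

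In the high MYC DMSO group the histone sums were 96487, 92183, 81518 and 79893 normalized counts in replicates 1 to 4, and RN7SK was 121769, 110944, 92237 and 88657. With IMP1088 the histone sums were 63448, 66805, 73105 and 73667, and RN7SK was 98008, 106389, 113403 and 122425. In the medium MYC DMSO group they were 102027, 109774, 132095 and 116160 beside 112114, 123016, 148230 and 131443. In these 3 groups both measures put the libraries in the same order. With IMP1088 at medium MYC the histone sums were 105227, 110699, 105907 and 100646 beside RN7SK at 136850, 141924, 132580 and 128811, where replicates 1 and 3 changed places. The sums per RN7SK count were 0.852 ± 0.0498 in high MYC cells with DMSO, 0.630 ± 0.0210 with IMP1088, 0.894 ± 0.0111 in medium MYC cells with DMSO and 0.782 ± 0.0124 with IMP1088 (SD, n = 4). On this scale the 5 classes were lower with IMP1088 at both MYC levels with no overlap between groups.

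Of 6 tested RNAs without a poly(A) tail (RN7SK, RN7SL1, RN7SL2, RMRP, RPPH1 and TERC, a list made after seeing the data), 2 rose with IMP1088 at each MYC level and 0 fell, with median log2 changes of 0.10 and 0.11. RN7SK itself was not called for IMP1088, with log2 changes of 0.10 at high MYC (limma adjusted p = 0.457) and 0.08 at medium MYC (adjusted p = 0.575). A limma fit with each library's log2 RN7SK level as a term, chosen after seeing the data, called 55 members lower with IMP1088 at the high level of MYC and 45 at the medium level, with median log2 changes of -0.42 and -0.18. For the difference in response it called 42 members, all lower, with a median of -0.26. Over all genes, in either direction, that fit called 4324 at high MYC and 4201 at medium MYC, against 3689 and 3618 without the term. Shares and medians over all genes by direction are not given here for that fit, so its member counts have no such background beside them. H2AC25 and H2BC26 were higher at medium MYC in that fit as well, by 0.34 and 0.25.

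**Figure D4:**
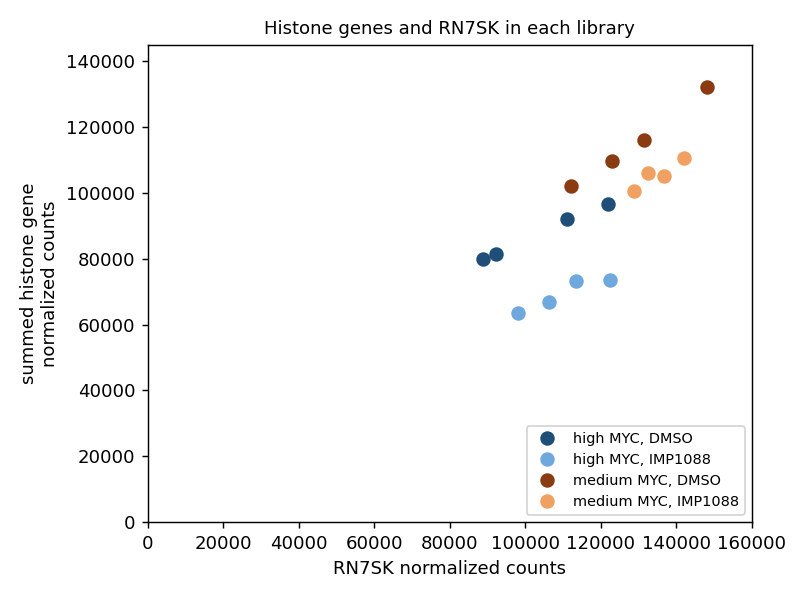
Summed normalized counts of all histone genes against RN7SK normalized counts, both axes from 0, with 1 point per library coloured by group. Within each group libraries with more RN7SK tend to have more histone mRNA, and at a like RN7SK level the IMP1088 libraries lie below the DMSO libraries of the same MYC level.

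Comparing the DMSO groups, histone genes were more often higher than lower at medium MYC, in a comparison in which 76.2% of all genes were called. Of the 62 members, 33 were higher and 6 lower at medium than at high MYC, where 38.9% of all genes were higher and 37.3% lower. The median log2 difference of the members was 0.20 against 0.02 over all genes. The 6 lower members were H2AC25, H2BC10, H3C1, H4C13, H4C4 and H4C8. The count lower was 2 without replicate 1 or 3 without replicate 2 of the medium MYC DMSO group, and 3 without replicate 1 or without replicate 2 of the high MYC DMSO group.

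By cluster, in HIST2 on chromosome 1, 8 of 11 members were higher and 0 lower, with a median of 0.69. In HIST1 on chromosome 6, 23 of 47 were higher and 5 lower, with a median of 0.18. The HIST2 sum was 23496 ± 1943 normalized counts at high MYC and 37486 ± 4076 at medium MYC, with no overlap, and the HIST1 sum was 62098 ± 6036 and 74830 ± 8498, with overlap (SD, n = 4). The difference between clusters was not tested.

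H2AC19, an H2A gene of HIST2, had 3794, 3061, 2818 and 3032 normalized counts at high MYC and 5332, 5722, 7493 and 6438 at medium MYC. All medium MYC libraries were higher, with a log2 difference of 0.97 (limma adjusted p = 4.05e-09, SE 0.0932). Its near-identical copy H2AC18 was higher as well, and the summed pair by 0.85. H2BC21 was higher by 0.80. H3C14 was higher by 0.84, and the sum of H3C14 and H3C15 by 0.57.

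In HIST1 both directions occurred. H2BC11 had 838, 807, 699 and 642 normalized counts at high MYC and 1221, 1339.8, 1616 and 1432 at medium MYC, a log2 difference of 0.91 (limma adjusted p = 3.91e-09, SE 0.087) with no overlap. H4C13 (chr6:27873199-27873510, minus strand) had 915, 803, 685 and 653 at high MYC and 382, 427, 538 and 484 at medium MYC. All its medium MYC libraries were lower, with a log2 difference of -0.74 (limma adjusted p = 1.5e-06, SE 0.104). H3C1 was lower by 0.41 and H2AC25 of HIST3 by 0.72. Among linker histones, H1-2, H1-4, H1-3 and H1-5 were all higher, by 0.68, 0.50, 0.28 and 0.19.

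RN7SK differed between these groups too, by 0.32 on the log2 scale (limma adjusted p = 0.0023), as did RN7SL1, the RNA of the signal recognition particle, by 0.66. With RN7SK as a term of the fit, 23 members were higher and 20 lower, and the median fell to 0.02. Without that term 38.9% of all genes were higher and 37.3% lower, and the shares over all genes with it are not given here. Of the 62 members, 16 then moved from above to below 0, among them H2AC11, H3C10, H3C8 and H4C5, and 7 of the 16 were called lower. Per RN7SK count the HIST2 sum stayed higher, at 0.292 ± 0.00512 against 0.229 ± 0.0159 with no overlap, and the HIST1 sum was 0.582 ± 0.00598 against 0.604 ± 0.0324 with overlap (SD, n = 4).

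**Figure D5:**
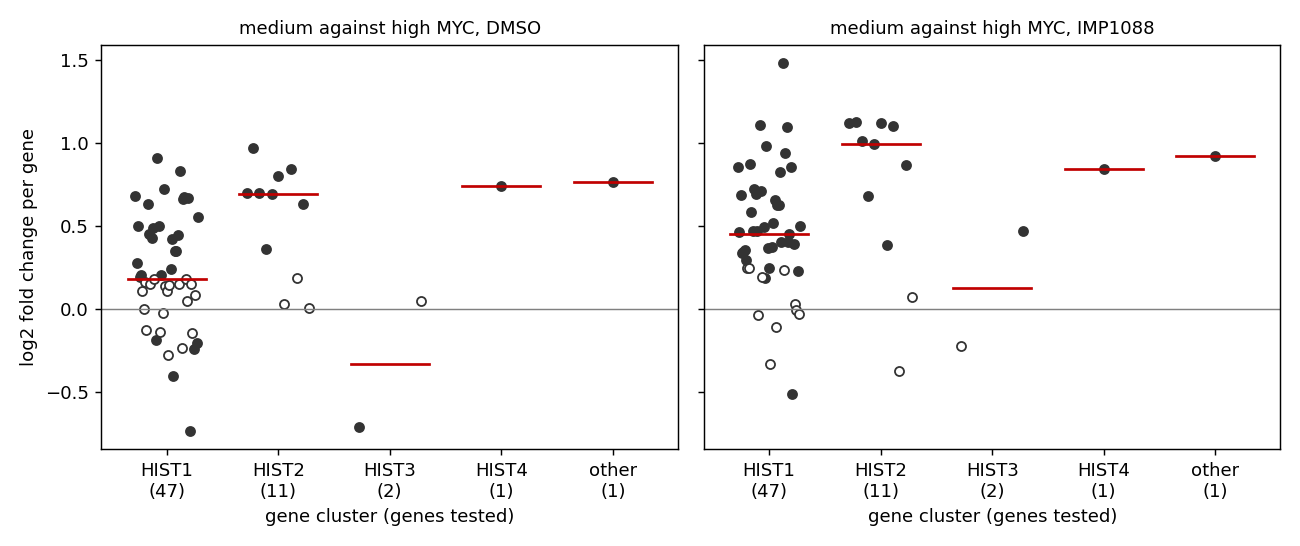
Log2 fold change at medium against high MYC for each tested histone gene by cluster, with DMSO (left) and with IMP1088 (right); filled points have adjusted p under 0.05 and red lines are medians. HIST2 genes have a median of 0.69 with DMSO and 1.00 with IMP1088, and HIST1 genes of 0.18 and 0.45.

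With IMP1088 present, more members differed between the MYC levels. Of the 62, 48 were higher at medium MYC and 1, H4C13, was lower, where 39.7% of all genes were higher and 37.8% lower, and the median was 0.47. The count lower was 2 without replicate 2 of the high MYC IMP1088 group or replicate 3 of the medium MYC IMP1088 group. All 33 members higher among the DMSO groups were higher here. This comparison shares its libraries with the responses to IMP1088 above, so it is no separate evidence for them. Here 8 members were higher by 2-fold or more: H2AC18, H2AC19, H2AC20, H2BC11, H2BC21, H3C14, H3C3 and H3C7. The sum of H3C14 and H3C15 was higher by 0.69 on the log2 scale, below 2-fold.

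H3C3, an H3 gene of low level, had 41.9, 43.3, 60.2 and 63.4 normalized counts at high MYC with IMP1088 and 119, 168, 150.4 and 148 at medium MYC. The groups did not overlap, and the log2 difference of 1.48 (limma adjusted p = 3.92e-08, SE 0.164) was the largest among the members. H4C13 stayed lower at medium MYC, by 0.51 (adjusted p = 0.00014). With RN7SK as a term, 40 members were higher and 8 lower. Without that term 39.7% of all genes were higher and 37.8% lower, and the shares over all genes with it are not given here.

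H2A and H2B genes with the octamer in their promoter window can be set beside those without. At medium against high MYC with DMSO, 15 of 22 with ATTTGCAT were higher and 1 lower, and 2 of 9 without it were higher and 1 lower, where 38.9% of all genes were higher and 37.3% lower. With IMP1088 at high MYC, 20 of 22 and 6 of 9 fell, where 16.3% of all genes fell. These counts are descriptions, and the difference between the sets was not tested.

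Beside the gene lists that follow, 16.3% of all genes fell and 10.5% rose with IMP1088 at high MYC, 14.6% fell and 11.7% rose at medium MYC, and with DMSO 38.9% were higher and 37.3% lower at medium MYC. Of 24 tested genes for transcription and processing of histone mRNA, 3 rose and 7 fell with IMP1088 at high MYC, with a median log2 change of -0.04. SLBP, the stem-loop binding protein, fell by 0.15 (limma adjusted p = 0.00588, SE 0.0391), from 942 ± 44.6 to 847 ± 8.33 normalized counts (SD, n = 4). NPAT was measured at 569.95 ± 49.6 and 573 ± 27.4, with a log2 change of 0.01 (adjusted p = 0.929). CDK2, the kinase that activates NPAT, fell by 0.33, ZNF473, a zinc finger protein of the U7 pathway, rose by 0.32, and NCBP1, the large cap-binding subunit, rose by 0.17. At medium MYC 0 of the 24 rose and 1, CDK2, fell.

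Between the MYC levels with DMSO, 8 of these 24 were higher and 11 lower at medium MYC. NPAT was higher, at 855 ± 41.7 against 569.95 ± 49.6 normalized counts, a log2 difference of 0.59, and CDK2 was higher by 1.87. SLBP was lower by 0.21, as were CDC25A, the phosphatase that activates CDK2, by 0.58 and NCBP2, the small cap-binding subunit, by 0.52.

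Genes of DNA synthesis in S phase fell with IMP1088 at high MYC in 15 of 24 cases, and 0 rose, with a median log2 change of -0.12. RRM2, a subunit of ribonucleotide reductase, fell by 0.42, and MCM4, a helicase subunit, by 0.17. At medium MYC 7 fell and 1 rose. The difference in response was called for 6 of the 24, all lower at high MYC, including RRM2 at -0.38. Over all genes 5.33% were called for a more negative response at high MYC and 3.31% for a more positive one. At medium against high MYC with DMSO 15 of the 24 were higher and 4 lower.

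Of 21 histone chaperones, which carry histone proteins to DNA, 1 rose and 5 fell at high MYC, and 3 rose and 5 fell at medium MYC. ASF1B, an H3-H4 chaperone of dividing cells, fell by 0.49 and NASP, which holds the soluble H3-H4 and H1 store, by 0.22, while NAP1L1 rose by 0.19. At medium against high MYC with DMSO, 6 of the 21 were higher and 9 lower, with ASF1B higher by 1.19, the largest rise of the list.

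Histone variants are expressed outside replication, mostly from polyadenylated mRNAs, though H2AX also makes a stem-loop form. With IMP1088 at high MYC 3 of 10 fell, H2AX by 0.26, H2AZ2 by 0.13 and MACROH2A1 by 0.10. At medium MYC 0 fell and 3 rose, among them the linker histone H1-10 by 0.33 and the H3.3 gene H3-3B by 0.17. In a list of 5 replication-dependent members known also to make polyadenylated transcripts (H1-2, H2AC6, H2BC5, H2BC12 and H2BC21), all 5 fell at high MYC, with a median of -0.30. The list may not be complete.

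Of the 7 B cell markers, 6 fell and 0 rose with IMP1088 at high MYC. At medium against high MYC with DMSO, 5 were higher and 2 lower. Their part in the histone results was not tested.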

How the data were processed

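RNA-seq of 16 libraries of P493-6 cells was analysed from the normalized counts that the authors deposited, 1 value per Ensembl gene and library. The submitters' processing notes name STAR 2.5.2a, RSEM 1.2.31, DESeq2 1.16.1 and GRCh38, with no role or order. In unit the deposited values are a signal scaled by library: each is a whole number of reads divided by 1 factor per library (0.858 to 1.33), within 1.08e-09 of a whole read. RSEM shares reads between near-identical copies, so such copies are also given as sums. Members and gene lists were chosen with earlier results of these data known. All members may be named. Given in full were the 3 of highest mean in each class and, in each comparison, up to 3 higher and 3 lower called members of largest change with a mean of at least 50; other lists gave up to 3 called genes of smallest p, beside SLBP, NPAT and MYC. Some genes that this rule names are not reported here.

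Genes with a mean of at least 10 (13765) were tested with limma 3.58.1 in R 4.3.3 with a mean trend, on log2(deposited value + 1), in 1 fit of 16 libraries with 4 group means. Tests were two-sided, p-values were adjusted over all genes by Benjamini-Hochberg, and 0.05 was the threshold. Fold changes are on the log2(value + 1) scale, which understates those of low genes. Class sums got no test. Alternatives were other scalings, pseudocounts, filters, tests of the recovered reads with edgeR 4.0.16 or DESeq2 1.42.0, replicate blocks, and leaving out each library. Added after seeing the data were GC and length corrections, RN7SK as a term, summed copies, and the list of RNAs without a poly(A) tail. The limma step was tested on simulated data. Positions are from GENCODE 29 (GRCh38) by identifier, and promoters from RefSeq GRCh38.p14. Library depth was 8755296 to 13858534 reads, so members with few reads are measured less precisely.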

Additional observations from a re-analysis of the deposited data

Results flagged for a closer look

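Among 268 sets of 4 libraries examined (histone genes given in full, genes named from the other lists and class sums, in each group), 11 had a highest or lowest library far from the other 3 by Dixon's test; chance flags about 1 in 20 such sets. Among the histone genes these were H3C14 at 1865.2 normalized counts in replicate 3 of the high MYC DMSO group, where its copy H3C15 was high, and H2BC11 at 525 in replicate 1 of the high MYC IMP1088 group. The summed H1 genes stood at 11343 in replicate 3 of the high MYC IMP1088 group. In replicate 1 of that group H2AZ2 was at 1003, H3-3B at 2479.8 and NCBP1 at 1065. In its replicate 2 MACROH2A1 was at 2415, and in its replicate 3 SLBP was at 859.6 and NCBP2 at 786. In the medium MYC IMP1088 group NCBP1 was at 801 in replicate 3 and ZNF473 at 243 in replicate 1.

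The response to IMP1088 differed between MYC levels, by limma's test of the difference (adjusted p under 0.05, high minus medium MYC on the log2 scale), for 11 of the genes named. Among histones these were H2BC26 at -0.42 and the variants H1-10 at -0.30 and H3-3B at -0.24. Of the processing and chaperone genes they were NCBP1 at 0.26, ZNF473 at 0.37, NASP at -0.13 and RBBP4 at -0.18. Of the S phase genes they were RRM2 at -0.38 and CDC6 at -0.28, and of the B cell markers CD22 at -0.27 and PAX5 at -0.17. In the same test 5.33% of all genes were called lower and 3.31% higher.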

How the results depend on the processing

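The fall at high MYC was called in 46 to 55 members (main 52) over the other settings and in 45 to 54 when 1 library was left out; 44 of the 52 members called kept their call in all 26 alternatives. At medium MYC the members called lower (main 4) were 8 when only the groups compared were fitted, 18 with the length correction, 45 with RN7SK as a term, and 3 to 11 when 1 library was left out; those called higher (main 2) were 1 to 3. For the difference in response (main 1) the count was 8 with equal library totals, 2 with TMM factors, 3 with quantile normalization, 2 with pseudocount 10, 5 with a filter at a mean of 100, 2 with edgeR and with DESeq2, 16 with the GC correction, 12 with the GC correction and replicate block, 3 with the length correction, 42 with RN7SK, 2 with copies summed, and 1 to 23 when 1 library was left out. Members lower at medium MYC with DMSO (main 6) were 3 with the length correction, 20 with RN7SK and 2 to 8 when 1 library was left out. Members lower at medium MYC with IMP1088 (main 1) were 2 with quantile normalization, GC correction (with or without the block) and length correction, 8 with RN7SK and 1 to 2 when 1 library was left out. The cause was not tested.

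The median log2 difference between MYC levels with DMSO was 0.39 with the length correction and 0.0205 with RN7SK, and with IMP1088 it was 0.30 with RN7SK. Without their highest member, the class sums at medium against high MYC differed by 0.53 (H1) and 0.23 (H3) with DMSO, and by 0.72 (H1), 0.41 (H3) and 0.41 (H4) with IMP1088. With RN7SK as a term, H2AC11 (-0.085), H3C10 (-0.0011), H3C8 (-0.13) and H4C5 (-0.13) reversed between the MYC levels with DMSO, as did H2BC10 (0.0217) with the length correction. These are the reversals among members given in full that were called on either side. Over all 62 members, 16 changed sign with RN7SK, all from above to below 0, and 5 with the length correction.

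Little pairing by replicate number was seen in the values. Same-numbered libraries had mean residual correlations from -0.07 to 0.02, and single pairs ran from -0.15 to 0.24. Whether samples were handled in pairs cannot be read from these values, and the labels do not say. With the replicate block 52 members fell at high MYC, 3 fell and 2 rose at medium MYC, 1 was called for the difference, 33 were higher and 6 lower at medium MYC with DMSO, and 48 and 1 with IMP1088. With the block nested in MYC level, 50 fell at high MYC and 2 were called for the difference. Depth limits what can be said of members with few reads.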

Other observations

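Members below the mean of 10 normalized counts belong in no comparison. H1-6, the testis form of H1, ranged from 0 to 9.39 normalized counts, with at most 9 reads in a library, and H1-1 from 0 to 3.50, with at most 3 reads. H4C12 had at most 17 reads in a library, beside its copy H4C11 with a mean of 3651 normalized counts. H2BC3 had at most 7 reads and H4C7 at most 1.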
